A study of Mus musculus with 8 samples.

Results

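The genes described here encode the enzymes that copy DNA and supply its building blocks, in tumors grown from C26 mouse colon carcinoma cells with and without the cytokine gene Il6. The group holds 47 genes chosen by name as subunits of the replication machinery and enzymes of deoxynucleotide synthesis, of 27179 genes with values in all 8 tumors. All 47 passed the filter on low values, so they are 47 of 13262 tested genes. Each member had between 171 and 6042 reads in a tumor.

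DNA replication starts where the origin recognition complex binds DNA and, with Cdc6 and Cdt1, loads the ring-shaped MCM2-7 helicase. Cdc45 and the GINS complex then join the helicase, primase and polymerase alpha make short primers, and polymerases delta and epsilon extend them while held to DNA by the sliding clamp PCNA, which the clamp loader RFC places. RPA coats single-stranded DNA, FEN1 and DNA ligase I join the fragments of the lagging strand, and ribonucleotide reductase, thymidylate synthase and thymidine kinase supply the precursors. Many of these genes are known targets of the E2F transcription factors and are transcribed before and during S phase, so in bulk tissue their RNA follows both the share of dividing cells and the output of each of them.

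The study asked what tumor-derived IL-6 does in cachexia, the wasting that accompanies cancer, and sequenced polyadenylated RNA from whole tumors. Tumors of the cxC26 scr group (n = 4) came from cachexia-inducing C26 cells carrying Cas9 and a scrambled guide. Tumors of the cxC26 IL-6 KO s1 group (n = 4) came from 1 subclone, s1, of the same cells with Il6 disrupted by CRISPR/Cas9, so that loss of Il6 and features of that subclone cannot be told apart. Both lines had been transduced with a lentiviral Cas9 vector, both were implanted subcutaneously in male CD2F1 mice aged 13 to 18 weeks, with intact immunity, and per the labels they were kept until the mice showed cachexia; the study's general limit was a body weight loss of over 15%. In the study's experiments in CD2F1 mice where KO s1 tumors led to cachexia, KO s1 cells were given in larger number than scr cells. Their tumors also took longer to grow. KO s1 cells given to CD2F1 mice in the number used for scr cells formed tumors that shrank and disappeared. The number of cells given and the day of harvest for the sequenced tumors are not given in the sources used here. A difference between the groups in either cannot be told apart from the loss of Il6. P-values measure the spread between these tumors.

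Il6, the targeted gene, had 356, 326, 376 and 438 reads in the scr tumors and 64, 56, 86 and 59 in the KO s1 tumors, of 14158989 to 17048062 reads in all. Markers of leukocytes rose in KO s1 tumors: the summed level of 5 pan-leukocyte markers was 169 to 199 CPM, the reads of a gene scaled to the size of its library, in scr tumors and 280 to 594 CPM in KO s1 tumors, with 5 of 5 genes higher. The same held for 6 of 6 macrophage markers (415 to 586 against 823 to 1270 CPM) and for the 4 tested T cell markers of 6 (0.843 to 3.03 against 8.81 to 16.8 CPM, summed over all 6). Of 5 fibroblast markers 1 was higher and 1 lower (3670 to 5530 against 3170 to 4690 CPM), and of 5 endothelial markers none passed the test (95.2 to 147 against 105 to 130 CPM). Of 8 colon epithelium markers 4 were tested, 2 higher and 1 lower (1080 to 1290 against 1320 to 1450 CPM, summed over all 8). Krt18 and Cdh1 were higher (log2 fold change 3.2 and 1.46) and Cdx2 was lower (-5.27). Cdx2 had 17 to 34 reads in scr tumors and 0 or 1 in KO s1 tumors. The defining markers Epcam, Krt19 and Vil1 had at most 14, 1 and 3 reads in a tumor, while Krt20 was abundant (10.07 to 10.48 log2 CPM). Neutrophil markers (1 of 3 tested higher, and Ly6g without a read in the scr tumors) were low (9.94 to 19.6 against 15.6 to 27.8 CPM). Of 5 B and plasma cell markers 2 were tested and 1 was higher, with a sum of 0.779 to 2.53 CPM in scr tumors and 5.94 to 69.4 CPM in KO s1 tumors, the top of it in KO s1 tumor 1. In such bulk samples, fewer cells of a type and less RNA per cell cannot be told apart, and the part of these leukocytes in the results below was not tested.

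The replication and nucleotide synthesis genes were modestly lower in KO s1 tumors. Of the 47 genes, 16 fell and 2 rose, at an adjusted p under 0.05 in limma, while 29 did not pass. In all, 39.8% of the tested genes passed in either direction. Among all tested genes 20.7% fell and 19.1% rose, against 34% and 4.26% of the members. The median log2 fold change (KO s1 minus scr, on the scale of log2 CPM) was -0.18 for the members and 0 for all tested genes, and it was below zero for 31 members and above zero for 16. Changes were small, between -0.58 and 0.29, so that no member halved or doubled. Of the 16 falls, 12 lay on chromosomes 1, 5 and 7, where 44% of all tested genes fell. With each chromosome's median log2 fold change removed, 10.6% of the members fell against 15.5% of all tested genes. None rose, against 16.1%. The falls lay mainly in the MCM2-7 helicase (4 of 6 lower), the clamp loader with its clamp (3 of 6), the enzymes of deoxynucleotide synthesis (3 of 4), and the origin recognition complex and the polymerases delta and epsilon with 2 each.

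**Figure D1:**
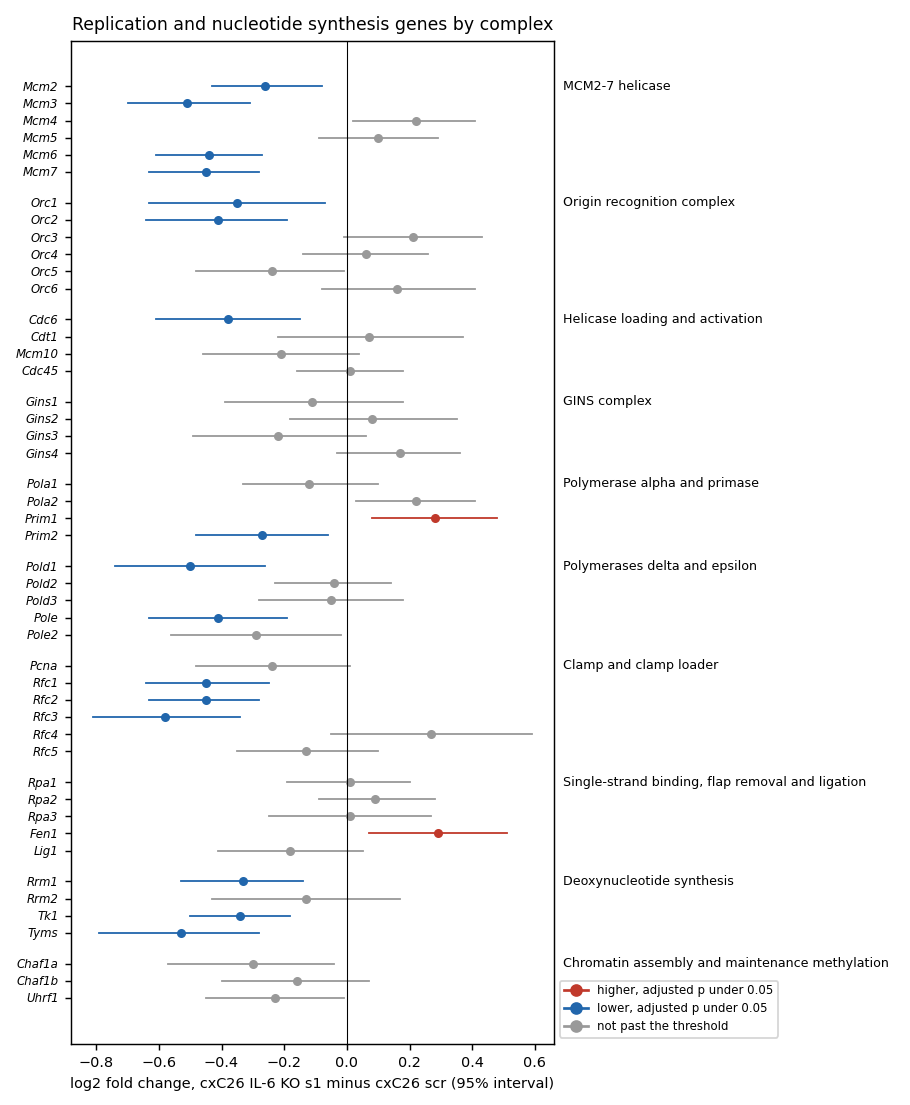
Log2 fold change of each of the 47 members (KO s1 minus scr, horizontal axis) with its 95% interval, grouped by complex; blue marks genes that fell, red genes that rose and grey genes past neither threshold (limma, 4 tumors per group). Most blue points lie in the helicase, the clamp loader and deoxynucleotide synthesis, and the 2 red points are Prim1 and Fen1.

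By median and by sum, the shift was seen in each KO s1 tumor. With each gene set relative to its mean in the scr tumors, the median over the members was -0.21, -0.13, -0.27 and -0.11 in KO s1 tumors 1 to 4 and -0.05, 0.08, 0.01 and -0.04 in scr tumors 1 to 4. Summed over the 47 genes, the level was 3539, 3791, 3646 and 3458 CPM in the scr tumors. It was 3262, 3213, 3025 and 3247 CPM in the KO s1 tumors, all below the lowest scr tumor. The number of members below their scr mean was 31, 32, 33 and 30 in KO s1 tumors 1 to 4. It was 26, 8, 23 and 31 in scr tumors 1 to 4, so that scr tumor 4 lay among the KO s1 tumors by this count. The summed pan-leukocyte level in KO s1 tumors 1 to 4 was 594, 280, 359 and 382 CPM, and its relation to the members was not tested. The groups did not overlap for 21 of the 47 members, against 37.1% of all tested genes.

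Promoters of the 4 members with the largest called changes are shown because genes of this class are known targets of E2F: Rfc3, Tyms, Mcm3 and Pold1, from 170 bases before to 30 bases after the start of transcription, 5′ to 3′ on the gene's strand, from RefSeq on GRCm38.p6. Capitals mark a match to an E2F-type motif on either strand, which was searched in the spellings TTCCCGC as well as the close variant TTCGCGC, and in another spelling as TTGCCGC and finally as the variant TTGGCGC. The windows lie at chr5:151651179-151651378 (Rfc3), chr5:30073596-30073795 (Tyms), chr1:20820283-20820482 (Mcm3) and chr7:44548786-44548985 (Pold1), all on the minus strand.
Rfc3: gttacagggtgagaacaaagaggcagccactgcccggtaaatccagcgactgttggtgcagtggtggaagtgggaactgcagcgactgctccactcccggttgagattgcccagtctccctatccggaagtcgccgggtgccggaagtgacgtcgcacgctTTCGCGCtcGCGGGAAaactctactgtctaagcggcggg
Tyms: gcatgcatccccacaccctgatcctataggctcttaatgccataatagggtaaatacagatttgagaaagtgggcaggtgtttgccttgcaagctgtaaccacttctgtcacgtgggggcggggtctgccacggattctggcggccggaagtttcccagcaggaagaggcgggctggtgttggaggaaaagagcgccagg
Mcm3: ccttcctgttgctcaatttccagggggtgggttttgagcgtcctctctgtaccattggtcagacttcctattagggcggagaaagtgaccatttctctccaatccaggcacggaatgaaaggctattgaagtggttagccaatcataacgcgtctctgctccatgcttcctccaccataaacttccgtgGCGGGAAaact
Pold1: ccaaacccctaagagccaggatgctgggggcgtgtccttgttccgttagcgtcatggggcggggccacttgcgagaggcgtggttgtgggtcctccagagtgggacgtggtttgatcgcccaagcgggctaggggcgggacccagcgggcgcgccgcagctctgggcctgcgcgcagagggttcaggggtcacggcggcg
Rfc3 holds 2 matches and Mcm3 1 in these windows, and neither Tyms nor Pold1 holds one of these letter strings there. In the longer window of 300 bases described next, Pold1 holds 1 match, Mcm3 3, Rfc3 2 and Tyms 0.

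Over the full window of 300 bases (250 before to 50 after the start), which was given for 40 of the 47 members, 27 members (67.5%) held an E2F-type match, against 19.2% of the 10221 tested genes with such a window and 10.9% of all 27025 genes in the table. The CCAAT box, the site of NF-Y, was in 62.5% of the members and 42.8% of tested genes. The CHR element, which marks many late cell cycle genes and was searched as TTTGAA or TTCGAA, was in 17.5% of the members and 16.3% of tested genes. Of members with the E2F letters, 9 of 27 fell (33.3%) and 2 rose, and 4 of the 13 without them fell (30.8%), a difference that was not tested. The median log2 fold change was -0.18 with a match and -0.21 without. Among all tested genes, 24% of those with a match and 20.9% of those without fell. Rfc2, Pole, Gins1, Gins2, Gins4, Mcm4 and Prim2 had no window in the table.

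The helicase MCM2-7, a ring of 6 different ATPases that unwinds DNA at the fork, was lower in 4 of its 6 genes, and the other two lay above zero (0 higher). Mcm3 was at 7.4, 7.41, 7.28 and 7.1 log2 CPM in scr tumors and 6.88, 6.8, 6.77 and 6.69 in KO s1 tumors, a fall to 70.3% of the scr level (log2 fold change -0.51, SE 0.0889, limma adjusted p = 0.000993). Mcm7 went from 7.46, 7.56, 7.56 and 7.53 to 7.13, 7.19, 6.99 and 6.98 (-0.45, SE 0.078, limma adjusted p = 0.000887). For both genes the highest KO s1 tumor lay below the lowest scr tumor. Mcm6 stood at 7.37, 7.51, 7.5 and 7.3 in scr tumors and 6.95, 6.95, 6.96 and 7.07 in KO s1 tumors (-0.44, SE 0.0792, limma adjusted p = 0.00123), again without overlap. Mcm2 fell by less, by 0.26 on the log2 scale (SE 0.0801, limma adjusted p = 0.0247), a call that was lost without scr tumor 2 or 3 or KO s1 tumor 2 or 3. Mcm7 overlaps genes on both strands, among them the microRNA genes Mir25, Mir93 and Mir106b, and the library kit does not mark strand.

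Mcm4 and Mcm5 did not share the fall. Mcm5 had a log2 fold change of 0.1 (95% interval -0.09 to 0.29, limma adjusted p = 0.392) and Mcm4 one of 0.22 (95% interval 0.02 to 0.41, limma adjusted p = 0.0736), which excludes for either gene a fall as large as that of Mcm3. Pairs of ring genes with unlike changes were also set against each other, at the level of RNA. Mcm5 minus Mcm3, a difference of log2 levels chosen after the values were seen and not tested, lay between -0.2 and -0.02 in the scr tumors and between 0.34 and 0.65 in the KO s1 tumors. Mcm4 minus Mcm7, chosen the same way, lay between -1.08 and -0.71 in scr tumors and between -0.36 and -0.05 in KO s1 tumors. In each pair the genes lie on chromosomes with unlike median log2 fold changes over all tested genes. These medians were 0.03 for Mcm5 and -0.34 for Mcm3, and 0.17 for Mcm4 and -0.24 for Mcm7. Per kb of exon, Mcm3 (5.39 ± 0.14, SD, n = 4, log2 CPM per kb), Mcm7 (5.38 ± 0.05), Mcm6 (5.20 ± 0.10) and Mcm5 (5.20 ± 0.09) headed the ring in scr tumors. Mcm3 and Mcm7 lay closer than their spread, as did Mcm6 and Mcm5, while the step from Mcm7 to Mcm6 exceeded either SD, and these were followed by Mcm4 (4.81 ± 0.16) and Mcm2 (4.43 ± 0.12). In KO s1 tumors Mcm5 (5.30 ± 0.14) came first, then Mcm4 (5.03 ± 0.04), Mcm7 (4.92 ± 0.10), Mcm3 (4.88 ± 0.08), Mcm6 (4.76 ± 0.06) and Mcm2 (4.18 ± 0.05). These levels rest on GENCODE exon lengths, since the authors' gene models are not given in the sources used here.

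**Figure D2:**
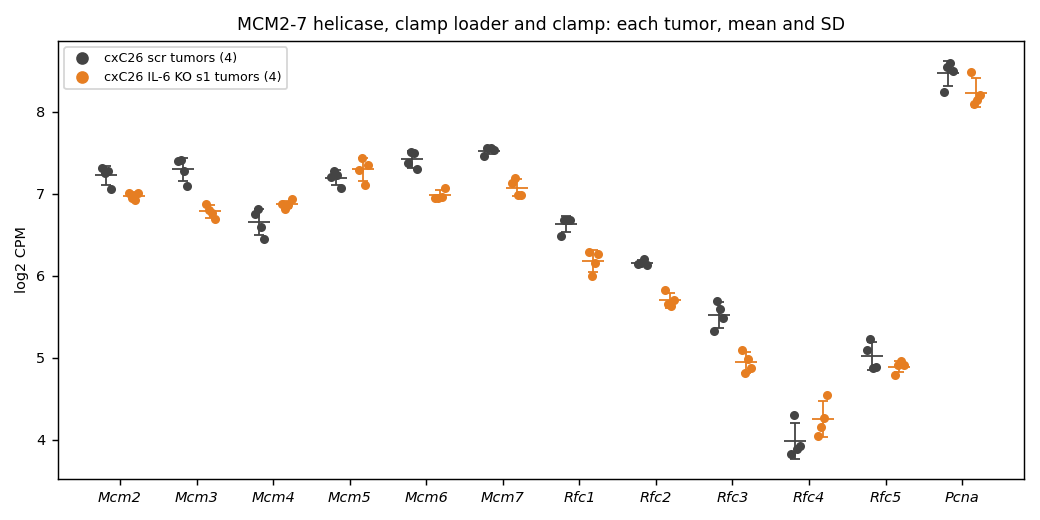
Level in log2 CPM (vertical axis) of the 6 helicase genes, the 5 clamp loader genes and Pcna in each scr tumor (dark) and each KO s1 tumor (orange), with group mean and SD. Mcm2, Mcm3, Mcm6, Mcm7, Rfc1, Rfc2 and Rfc3 separate the groups, with KO s1 below scr, Mcm4 separates them narrowly the other way (scr up to 6.81, KO s1 from 6.82), and Mcm5, Rfc4, Rfc5 and Pcna overlap.

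At origins, 2 of the 6 genes of the origin recognition complex fell. Orc2, a core subunit, was at 6.13, 6.35, 6.16 and 6.18 log2 CPM in scr tumors and 5.67, 5.67, 5.76 and 6.06 in KO s1 tumors (log2 fold change -0.41, SE 0.104, limma adjusted p = 0.00816). Orc1, the subunit with the main ATPase activity, was at 4, 4.16, 4.04 and 4.08 in scr tumors and 3.75, 3.92, 3.44 and 3.78 in KO s1 tumors (-0.35, SE 0.128, limma adjusted p = 0.0484). Neither gene overlapped between groups. The call on Orc1 sits at the threshold and was lost without scr tumor 1, 2, 3 or 4 and without KO s1 tumor 1, 3 or 4, with a log2 fold change that stayed below zero. Orc3, Orc4, Orc5 and Orc6 ranged from -0.24 to 0.21 and did not pass. Orc2 overlaps Nif3l1 and Orc1 overlaps Gm12743, so that some reads could belong to either gene.

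Of the factors that load and activate the helicase, Cdc6 fell and the others did not pass. Cdc6, the loader that works with ORC, was at 5.42, 5.65, 5.3 and 5.22 log2 CPM in scr tumors and 5.06, 4.95, 4.96 and 5.1 in KO s1 tumors, with every KO s1 tumor below every scr tumor (log2 fold change -0.38, SE 0.107, limma adjusted p = 0.0148). Cdt1, its partner in loading, had 0.07 (95% interval -0.22 to 0.37). Its inhibitor geminin, Gmnn, rose by 0.32 (SE 0.114, limma adjusted p = 0.0429), a call that was kept without scr tumor 2 and lost without any other single tumor. The log2 difference Cdt1 minus Gmnn was 0.75 ± 0.40 (SD, n = 4) in scr tumors and 0.51 ± 0.16 in KO s1 tumors (exact permutation test, two-sided, p = 0.343), and their difference of -0.25 became -0.06 without scr tumor 1. Mcm10 had -0.21 (95% interval -0.46 to 0.04).

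Cdc45 and GINS, which turn the loaded ring into a working helicase, were near zero. Cdc45 was at 5.92, 5.98, 5.87 and 5.86 log2 CPM in scr tumors and 5.87, 5.86, 5.94 and 5.99 in KO s1 tumors, with a log2 fold change of 0.01 and a 95% interval of -0.16 to 0.18. None of the 4 GINS genes passed (range -0.22 to 0.17). Gins4, the most abundant of them per length (5.22 log2 CPM per kb in scr tumors), was at 5.49, 5.74, 5.76 and 5.64 in scr tumors and 5.83, 5.79, 5.76 and 5.91 in KO s1 tumors (0.17, 95% interval -0.03 to 0.36). Thus 4 of 6 ring genes fell and 0 of these 5 activator genes, where 20.7% of all tested genes fell. The difference between the sets was not tested. The sets lie on chromosomes with unlike medians over all tested genes. These were -0.34 for Mcm3 and Mcm6, -0.24 for Mcm7 and 0.07 for Mcm2. They were 0.17 for Cdc45, -0.08 for Gins1 and 0.03 for Gins2, Gins3 and Gins4.

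The genes of the priming enzyme split. Prim1, the catalytic primase subunit, rose from 4.96, 5.2, 4.99 and 5.12 log2 CPM in scr tumors to 5.39, 5.42, 5.26 and 5.32 in KO s1 tumors (log2 fold change 0.28, SE 0.0922, limma adjusted p = 0.0311). Prim2, its regulatory partner, fell from 5.43, 5.65, 5.69 and 5.64 to 5.29, 5.21, 5.34 and 5.49 (-0.27, SE 0.0955, limma adjusted p = 0.0417). Prim1 did not overlap between groups, while Prim2 did, through scr tumor 1 and KO s1 tumor 4. Prim1 minus Prim2, a difference chosen after the values were seen, was -0.7 to -0.44 in scr tumors and -0.17 to 0.21 in KO s1 tumors. Prim1 lies on chromosome 10 and Prim2 on chromosome 1, where all tested genes had medians of 0.32 and -0.34. Less these medians, Prim1 had -0.05 and Prim2 0.07. Both calls were lost when some single tumors were left out: Prim1 without scr tumor 1, 3 or 4 or KO s1 tumor 1 or 2, and Prim2 without scr tumor 2, 3 or 4 or KO s1 tumor 1, 2 or 3. The polymerase alpha genes Pola1 (-0.12) and Pola2 (0.22) did not pass.

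Both catalytic subunits of the main replicative polymerases fell. Pold1, the catalytic subunit of polymerase delta, was at 6.05, 5.85, 6.05 and 5.83 log2 CPM in scr tumors and 5.68, 5.28, 5.31 and 5.52 in KO s1 tumors (log2 fold change -0.50, SE 0.109, limma adjusted p = 0.00388). Pole, that of polymerase epsilon, was at 5.33, 5.31, 5.54 and 5.44 in scr tumors and 4.98, 5.02, 4.83 and 5.15 in KO s1 tumors (-0.41, SE 0.0995, limma adjusted p = 0.00702). Neither gene overlapped between groups. The accessory subunits Pold2 (-0.04, 95% interval -0.23 to 0.14), Pold3 (-0.05, 95% interval -0.28 to 0.18) and Pole2 (-0.29, 95% interval -0.56 to -0.02) did not pass after adjustment. Pold2 minus Pold1 went from between -0.3 and 0.03 in scr tumors to between 0.12 and 0.56 in KO s1 tumors, again a difference chosen after the values were seen. Less the median of its chromosome, Pold1 had -0.23, Pole -0.17 and Pold2 0.1. Neither Pold1 nor Pole was called on that scale.

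In the clamp loader RFC, a complex of 5 subunits that opens PCNA and closes it around DNA, 3 genes fell by similar amounts. Rfc3 had the largest change of all 47 members, from 5.32, 5.69, 5.59 and 5.48 log2 CPM in scr tumors to 5.1, 4.81, 4.99 and 4.87 in KO s1 tumors, or 67% of the scr level (log2 fold change -0.58, SE 0.108, limma adjusted p = 0.00143). Rfc2 went from 6.14, 6.16, 6.21 and 6.13 to 5.83, 5.65, 5.63 and 5.7 (-0.45, SE 0.0792, limma adjusted p = 0.000973). Rfc1, the large subunit, went from 6.48, 6.68, 6.68 and 6.68 to 6.29, 6, 6.16 and 6.27 (-0.45, SE 0.0898, limma adjusted p = 0.00229). All 3 separated the groups. Rfc5 (-0.13) and Rfc4 (0.27, 95% interval -0.05 to 0.59) did not pass, and Rfc4 minus Rfc3, chosen after the values were seen, was -1.7 to -1.39 in scr tumors and -1.05 to -0.32 in KO s1 tumors. Rfc4 lies on chromosome 16 and Rfc3 on chromosome 5, where all tested genes had medians of 0.17 and -0.24. Less these medians, Rfc4 had 0.1 and Rfc3 -0.34. The clamp Pcna, at 7.21 log2 CPM per kb the most abundant member per length in scr tumors, had -0.24 (95% interval -0.48 to 0.01, limma adjusted p = 0.11), and reads could be shared with its pseudogenes Pcna-ps1 and Pcna-ps2.

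On the lagging strand, Fen1 rose and the rest did not pass. Fen1, the nuclease that trims flaps between fragments, was at 6.32, 6.14, 5.94 and 5.97 log2 CPM in scr tumors and 6.39, 6.52, 6.25 and 6.35 in KO s1 tumors, where the groups overlapped through scr tumor 1 (log2 fold change 0.29, SE 0.101, limma adjusted p = 0.0412). The call was lost without scr tumor 2, 3 or 4 or KO s1 tumor 1, 2 or 4. Lig1, the ligase that seals the trimmed fragments, had -0.18 (95% interval -0.41 to 0.05). Rpa1, Rpa2 and Rpa3 lay between 0.01 and 0.09. Fen1 overlaps Tmem258 and Gm10143, so part of its reads could belong to them.

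Deoxynucleotide synthesis was lower in 3 of 4 genes. Tyms, thymidylate synthase, which makes dTMP from dUMP, was at 5.94, 6.2, 6.17 and 6.05 log2 CPM in scr tumors and 5.23, 5.69, 5.58 and 5.74 in KO s1 tumors (log2 fold change -0.53, SE 0.117, limma adjusted p = 0.00413). Tk1, the cytosolic thymidine kinase that salvages thymidine, was at 6.45, 6.55, 6.37 and 6.47 in scr tumors and 6.15, 6.08, 6.14 and 6.12 in KO s1 tumors (-0.34, SE 0.0742, limma adjusted p = 0.00387). Rrm1, the large subunit of ribonucleotide reductase, was at 7.81, 8.11, 8.03 and 7.93 in scr tumors and 7.57, 7.72, 7.53 and 7.73 in KO s1 tumors (-0.33, SE 0.0898, limma adjusted p = 0.012). In all 3 genes every KO s1 tumor lay below every scr tumor. Rrm2, the small subunit that limits the enzyme in S phase, had -0.13 (95% interval -0.43 to 0.17), with tumors of both groups interleaved.

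The isoforms used outside S phase gave the comparison for these enzymes. Rrm2b, the p53-inducible small subunit, rose by 0.49 (SE 0.143, limma adjusted p = 0.0174), and the log2 difference Rrm2 minus Rrm2b was 2.30 ± 0.46 (SD, n = 4) in scr tumors and 1.68 ± 0.26 in KO s1 tumors (exact permutation test, two-sided, p = 0.0857), and their difference of -0.62 became -0.40 without scr tumor 1. Tk1 minus Tk2, the cytosolic against the mitochondrial thymidine kinase, was 1.43, 1.55, 1.52 and 1.58 in scr tumors and 0.81, 0.88, 0.94 and 1.32 in KO s1 tumors. These values did not overlap, and the difference of -0.53 had the smallest p this design allows (exact permutation test, two-sided, p = 0.0286), which over the 3 ratios examined became 0.0858 after Benjamini-Hochberg adjustment of the exact values. Tk2 itself did not pass (0.19, 95% interval -0.07 to 0.46).

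Chromatin assembly and maintenance methylation behind the fork showed no call, with all 3 genes below zero. Uhrf1, which brings the maintenance methyltransferase to new DNA, was at 6.92, 6.81, 6.79 and 6.52 log2 CPM in scr tumors and 6.63, 6.59, 6.35 and 6.54 in KO s1 tumors (log2 fold change -0.23, 95% interval -0.45 to -0.01, limma adjusted p = 0.0929). The histone chaperone genes Chaf1a and Chaf1b had -0.30 (95% interval -0.57 to -0.04) and -0.16 (95% interval -0.40 to 0.07).

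The members' changes were set beside those of their chromosomes. In KO s1 against scr tumors, the median log2 fold change over all tested genes of a chromosome reached -0.34 for chromosome 1, while chromosomes 5 and 7 had -0.24 and -0.27. Chromosomes 10 and 19 stood above zero, at 0.32 and 0.33, and the other 15 lay between these. Chromosomes 1, 5 and 7 carried 16 members, of which 12 fell and none rose, where 44% of all tested genes there fell and 10.2% rose. The members there had a median of -0.43 and all tested genes one of -0.28. Less its own chromosome's median, the median member lay at -0.13 there, -0.05 on chromosomes 10 and 19 and -0.09 on the other 15. Chromosomes 10 and 19 carried 3 members, of which Prim1 and Fen1 rose, where 47.4% of tested genes rose and 4.38% fell. On the other 15 chromosomes 28 members lay, of which Mcm2, Orc1, Cdc6 and Tk1 fell (4 of 28, against 16.3% of tested genes) and none rose (against 18.5%), with a median of -0.08 beside 0.02. The complexes were spread unevenly: Rfc1, Rfc2 and Rfc3 lie on chromosome 5 with Mcm7, Pole and Tyms, Mcm3, Mcm6, Orc2 and Prim2 on chromosome 1, and Pold1 and Rrm1 on chromosome 7, whereas Mcm5 lies on chromosome 8 and Mcm4, Cdc45 and Rfc4 on chromosome 16.

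**Figure D3:**
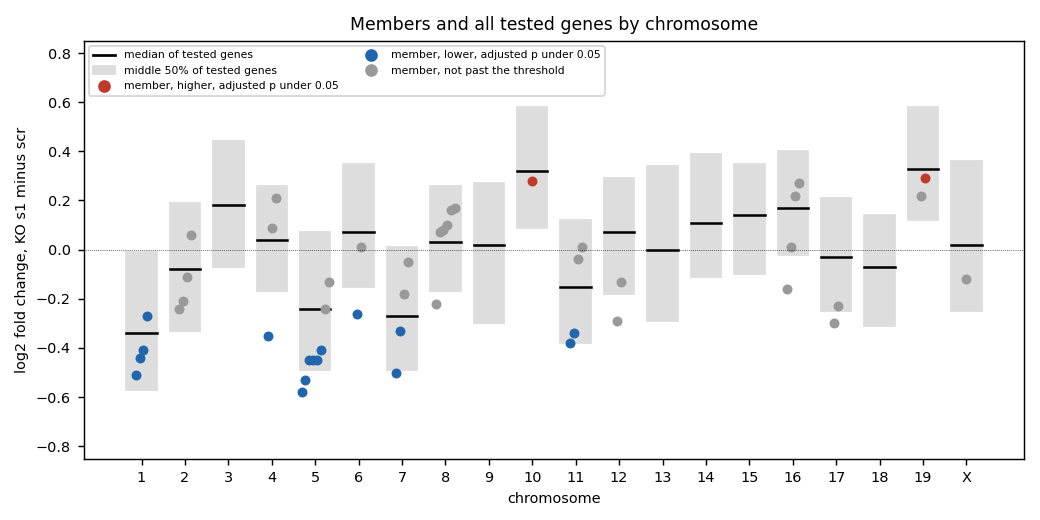
Log2 fold change (KO s1 minus scr, vertical axis) of the members on each chromosome (horizontal axis), over the median (line) and the middle 50% (grey box) of all tested genes there. The blue points of chromosomes 1, 5 and 7 sit within or near low boxes with medians of -0.34, -0.24 and -0.27, and both red points sit in the raised boxes of chromosomes 10 and 19.

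With the chromosome's median taken from each gene before the test, 5 members fell and none rose (0 higher), or 10.6% lower where 15.5% of all tested genes were lower on the same scale. Mcm2 (-0.32, limma adjusted p = 0.00973), Orc1 (-0.38, limma adjusted p = 0.0391) and Rfc3 (-0.34, limma adjusted p = 0.0312) passed in both versions. Chaf1b and Pole2 passed in this version and not in the main fit. With the median of the surrounding 10 Mb taken away instead, an alternative chosen after the data were seen that could be applied to 40 members, Mcm2, Orc1, Pole and Tk1 of the called genes passed, with Gins3 and Chaf1b beside them, or 15% lower against 14.6% of all genes. Thus 3 of the 16 falls still passed after the chromosome's median was removed, and the 2 rises, Prim1 and Fen1, became -0.05 each. A difference in chromosome number between the lines and a loss of Il6 cannot be told apart here, since KO s1 is 1 subclone and no DNA was analysed.

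Upstream of replication stand the regulators of the step from G1 into S phase. Of 35 listed genes 32 were tested, of which 11 fell (34.4%, against 20.7% of all tested genes) and 3 rose (9.38%, against 19.1%), with a median of -0.11. The count of rises was 1 without scr tumor 1 or 3 or KO s1 tumor 2 or 3. Cdk6, a kinase that phosphorylates the retinoblastoma protein, was at 4.77, 4.18, 4.69 and 4.77 log2 CPM in scr tumors and 3.28, 2.72, 3.42 and 3.6 in KO s1 tumors, or 39.3% of the scr level (log2 fold change -1.35, SE 0.198, limma adjusted p = 0.000351). Ccne1, cyclin E1, which drives entry into S phase, was at 5.33, 5.06, 4.98 and 4.9 in scr tumors and 4.27, 3.71, 4.14 and 4.5 in KO s1 tumors (-0.91, SE 0.163, limma adjusted p = 0.00114). Cdc25a, the phosphatase that activates CDK2, was at 6.04, 5.93, 5.86 and 6.04 in scr tumors and 4.81, 5.35, 5.24 and 5.39 in KO s1 tumors (-0.77, SE 0.125, limma adjusted p = 0.000649). None of the 3 overlapped between groups, and all 3 were also called with the chromosome's median removed.

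The E2F family was mixed: E2f1 (-0.41), E2f3 (-0.38) and E2f6 (-0.33) fell, E2f2 (0.57) rose, and E2f4, E2f5, E2f7 and E2f8 did not pass. Cdc7 (-0.67) and its activator Dbf4 (-0.28), the kinase that fires loaded helicases, both fell, Dbf4 losing its call in 2 of the 8 fits that left out a tumor. Less the median of chromosome 5, which carries both, Cdc7 had -0.43 and Dbf4 -0.04. Among inhibitors of the cell cycle, Cdkn1a (p21) fell by 0.52 on the log2 scale and Cdkn2c rose by 0.35, the latter a call that was lost in 5 of the 8 fits that left out a tumor, while Cdkn1c, Cdkn2a and Cdkn2b were below the filter on low values. Ccnd1, Cdk4, Cdk2, Ccna2 and Myc did not pass. The genes of this paragraph were named after their values were seen.

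Among accessory factors of the fork 12 of 36 were lower (33.3%, against 20.7% of all tested genes) and 3 higher (8.33%, against 19.1%), with a median of -0.15. The lower count was 7 without scr tumor 2 or 3 and 5 without KO s1 tumor 3, and the higher count was 1 without scr tumor 3. Exo1, a 5′ to 3′ exonuclease, was at 4.49, 4.42, 4.02 and 4.1 log2 CPM in scr tumors and 3.53, 3.32, 3.52 and 3.57 in KO s1 tumors (log2 fold change -0.78, SE 0.138, limma adjusted p = 0.00111). Top1, the topoisomerase that relaxes DNA ahead of the fork, was at 7.64, 7.78, 7.56 and 7.61 in scr tumors and 7.02, 6.98, 6.99 and 7.1 in KO s1 tumors (-0.63, SE 0.0766, limma adjusted p = 0.000107). Asf1a, a chaperone of histones H3 and H4, rose from 4.6, 4.68, 4.68 and 4.91 to 5.22, 5.54, 5.51 and 5.46 (0.72, SE 0.107, limma adjusted p = 0.000394). All 3 separated the groups. Its paralog Asf1b, the form tied to dividing cells and named after its value was seen, had a log2 fold change of 0.

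In the other enzymes of nucleotide synthesis, 9 of 36 fell (25%) and 7 rose (19.4%), close to the 20.7% and 19.1% of all tested genes, with a median of 0.05. Shmt1, the cytosolic enzyme that loads folate with the carbon used for thymidylate, was at 5.35, 5.38, 5.38 and 5.32 log2 CPM in scr tumors and 4.08, 4.48, 4.08 and 4.36 in KO s1 tumors, or 46.3% of the scr level (log2 fold change -1.11, SE 0.111, limma adjusted p = 2.76e-05). Pfas, an enzyme of purine synthesis, was at 6.5, 6.27, 6.27 and 6.34 in scr tumors and 5.74, 5.56, 5.43 and 5.88 in KO s1 tumors (-0.69, SE 0.108, limma adjusted p = 0.000496). Both separated the groups. Samhd1, which breaks deoxynucleotides down and is abundant in myeloid cells, rose from 6.11, 6.02, 5.92 and 5.99 to 7.65, 6.49, 6.46 and 6.46 (0.75, SE 0.223, limma adjusted p = 0.0188), with KO s1 tumor 1, the one with most leukocyte RNA, far above the rest. Its call was lost without scr tumor 3.

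Set beside Tyms and Tk1, a further step that leads to dTTP was lower as well, in a grouping made after the values were seen and therefore not tested as a group. Dtymk, which phosphorylates dTMP, was at 6.69, 6.94, 6.73 and 6.82 log2 CPM in scr tumors and 6.05, 6.18, 6.21 and 6.2 in KO s1 tumors (log2 fold change -0.63, SE 0.0828, limma adjusted p = 0.000164). By contrast Dut (0.27) and Dctd (-0.25), which supply dUMP, did not pass, nor did the mitochondrial Shmt2 (0.47) and Mthfd2 (0.46). Mthfd1l, listed with them, rose by 0.56 (SE 0.142, limma adjusted p = 0.00869). In purine synthesis Ppat (-0.66), Atic (-0.42) and Adss (-0.37) fell beside Pfas, Prps2 rose (0.58), and Gart, Paics, Adsl and Gmps did not pass. Less the median of its chromosome, Atic had -0.08 and Adss -0.03, while Ppat had -0.42, Pfas -0.54 and Prps2 0.56. Dtymk had -0.3 on that scale.

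**Figure D4:**
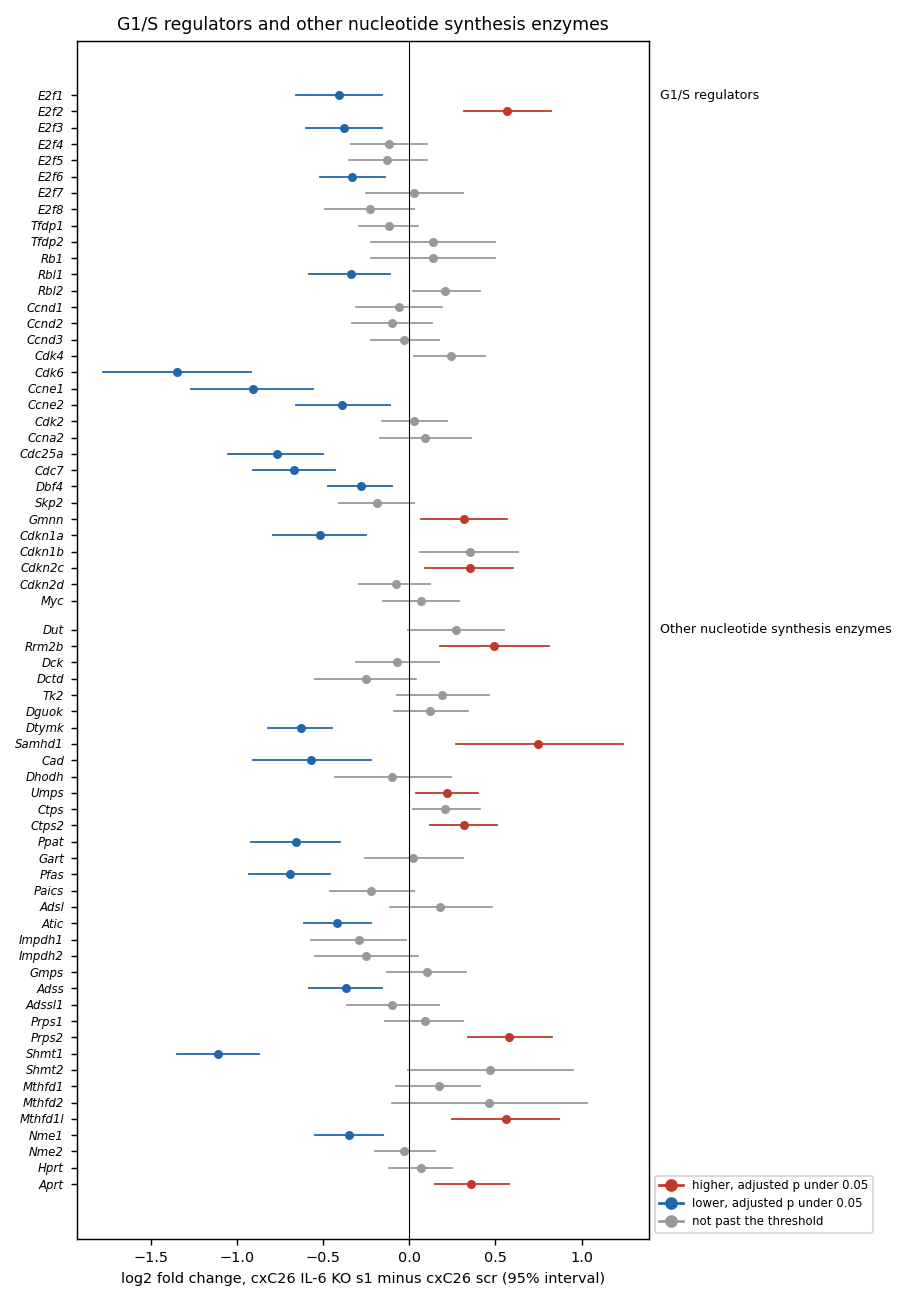
Log2 fold change (KO s1 minus scr, horizontal axis) with 95% interval for the 32 tested G1/S regulators and the other nucleotide synthesis enzymes reported here, colored as in the plot of the members by complex. Cdk6 (-1.35), Shmt1 (-1.11) and Ccne1 (-0.91) lie farthest below zero and Samhd1 (0.75) farthest above.

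Genes of mitosis and general proliferation were near the background, with 3 of 15 lower and 3 higher (20% each, against 20.7% and 19.1% of all tested genes) and a median of -0.09. The lower count was 1 without scr tumor 2 or KO s1 tumor 1 or 3. Ccnb2, a mitotic cyclin, was at 5.24, 5.2, 4.85 and 5.11 log2 CPM in scr tumors and 5.21, 6.25, 5.79 and 5.7 in KO s1 tumors (log2 fold change 0.64, SE 0.181, limma adjusted p = 0.0156), where KO s1 tumor 1 lay among the scr tumors. Bub1, a spindle checkpoint kinase, was at 6.15, 6.45, 6.31 and 6.44 in scr tumors and 6.01, 5.95, 5.48 and 6 in KO s1 tumors (-0.47, SE 0.126, limma adjusted p = 0.011), without overlap. Aurkb, a mitotic kinase, was at 6.02, 5.73, 5.48 and 5.61 in scr tumors and 5.15, 5.51, 5.14 and 5.43 in KO s1 tumors (-0.40, SE 0.131, limma adjusted p = 0.0308), with overlap. Aurkb lost its call without scr tumor 1 or 2 or KO s1 tumor 1 or 3, and Ccnb2 lost its own without scr tumor 3. The proliferation marker Mki67, on chromosome 7 and named after its value was seen, fell by 0.38 (SE 0.123, limma adjusted p = 0.0287), a call lost without scr tumor 2, 3 or 4 or KO s1 tumor 1, 2 or 3, and had -0.11 with its chromosome's median removed.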

How the data were processed

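RNA from 8 tumors, 4 per group, was sequenced as paired reads of 150 bases. According to the methods and the submitters' processing notes, the authors used Trimmomatic for trimming, HISAT2 for alignment to mm10 (GRCm38) and featureCounts for gene counts. They deposited the limma-voom output, log2 CPM per gene and tumor. Versions, gene models and strand setting are not given in the sources used here, and the library kit does not mark strand. Groups and numbers of tumors came from the sample titles. Voom adds 0.5 reads before the log. Inverting this gave whole reads for 100% of values (within 0.01 reads) and totals of 14158989 to 17048062 reads, which set the precision of low genes.

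Genes were tested if 4 or more tumors reached 1 CPM, which left 13262. Linear models without covariates were fitted to their log2 values by limma 3.58.1 in R 4.3.3, and variances were moderated with eBayes under a mean-variance trend, with Benjamini-Hochberg adjustment over all of them and a threshold of 0.05. Intervals of fold changes are 95% intervals from that fit. The 3 ratios were compared by exact permutation over the 70 splits of the tumors. Values per kb used GENCODE M21 exon lengths, and positions came from RefSeq on GRCm38.p6, which placed 97.9% of tested genes. The 10 Mb windows needed at least 25 tested genes. The fit was tested on simulated data. Alternatives were other filters, scalings, weights and pseudocounts, a 2-fold threshold, a replicate block, each tumor left out, and removal of chromosome or 10 Mb medians.

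The members, the 4 lists of related genes and the marker lists were chosen with earlier results of these data known. Within each complex, values in every tumor were given for up to 3 members past the threshold by size of change, or for the member with the highest mean where none passed, and within each related list for up to 3 genes past the threshold. Promoters were those of the 4 largest called changes. Values of 1 gene of the related lists are not reported here, though it is in the counts.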

Additional observations from a re-analysis of the deposited data

Results flagged for a closer look

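In 8 of 146 groups of 4 tumors, 1 tumor stood far from the other 3 (its gap to the nearest, divided by the group's range, above Dixon's critical value), where chance alone gives about 7.3. Among the members, Mcm6 in KO s1 tumor 4 was at 7.07 log2 CPM beside 6.95 to 6.96, Pold3 in scr tumor 3 was at 4.66 beside 4.95 to 5, Rfc1 in scr tumor 1 was at 6.48 beside 6.68 in each of the others, and Chaf1a in scr tumor 1 was at 6.4 beside 6.07 to 6.12. Among related genes, Cdk6 in scr tumor 2 was at 4.18 beside 4.69 to 4.77, Samhd1 in KO s1 tumor 1 at 7.65 beside 6.46 to 6.49, and Bub1 in KO s1 tumor 3 at 5.48 beside 5.95 to 6.01. The summed level of the fibroblast markers in scr tumor 1 was 5530 CPM beside 3670 to 3860.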

How the results depend on the processing

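The lower count among the members stayed between 14 and 16 under no filter on low values, a stricter filter, quantile scaling, re-centring, a replicate block, no mean-variance trend, voom weights and a pseudocount of 1 CPM, and between 13 and 18 with each tumor left out. The higher count was 1 with no filter, 1 with no trend, 4 with quantile scaling and 0 to 2 with each tumor left out. Orc1 lost its call with no filter, re-centring, a replicate block and a pseudocount of 1 CPM. Mcm2 lost its call with quantile scaling, Prim2 with no filter, quantile scaling or no trend, and Fen1 with no filter or no trend. A 2-fold threshold left 0 members in either direction (24 had an unadjusted p under 0.05 in limma) and 829 higher and 521 lower genes of all. Removing the chromosome's median left 5 lower and 0 higher members, and removing that of 10 Mb left 6 lower and 0 higher members and 1741 lower genes of all. Signs turned for Pold2 with quantile scaling (0.01) and, with the chromosome's median removed, for Cdc45 (-0.16), Pola2 (-0.12), Prim1 (-0.05), Prim2 (0.07), Pold2 (0.1), Pold3 (0.22), Rfc5 (0.12), Rpa3 (-0.06), Fen1 (-0.05), Lig1 (0.09) and Hells (-0.03), and for related genes that had not passed, among them Cdk4 (-0.09) and Ccnd1 (0.21). With the 10 Mb median removed they turned for Orc5 (0.07), Cdc45 (-0.21), Gins1 (0.09), Pola2 (-0.12), Prim1 (0), Prim2 (0.09), Pold2 (0.21), Pold3 (0.09), Fen1 (-0.04), Lig1 (0.17), Hells (-0.13), Slbp (0.09) and Kif11 (-0.05). With single tumors left out they turned for Cdc45 (-0.02 to 0.03), Cdt1 (-0.01 to 0.18), Gins2 (-0.03 to 0.17), Rpa1 (-0.04 to 0.05) and Rpa3 (-0.07 to 0.1). By construction these removals subtract a regional shift; apart from that, the cause of the changes was not tested.

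Same-numbered tumors belong to different animals, and the correlations of their deviations were -0.0593, 0.057, 0.017 and -0.0587, so the numbers did not pair them; the replicate block gave 2 higher and 15 lower members, a Tk1 minus Tk2 difference of -0.53 (limma p = 0.0509) and a Rrm2 minus Rrm2b difference of -0.62 (limma p = 0.0294). With each tumor left out Tk1 minus Tk2 ranged from -0.64 to -0.47, Rrm2 minus Rrm2b from -0.75 to -0.40 and Cdt1 minus Gmnn from -0.35 to -0.06. With 4 tumors per group, the calls on Prim1, Prim2, Mcm2, Fen1 and Orc1 were lost without some single tumors, while the other 13 called members kept theirs.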
